A study of Mus musculus with 12 samples.

Results

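The amino acid, one-carbon and ATF4 stress genes were followed in CD8 T cells of Ezh2-knockout and wild-type mice, before and after activation. The set held 37 genes, listed by symbol for their pathway roles with no measured value in the rule. The list was nevertheless chosen with earlier results of these data known. All 37 were found among the 20962 genes measured. It comprised 8 amino acid transporters, 8 enzymes of amino acid synthesis, 7 enzymes of one-carbon and purine metabolism, 3 genes of transsulfuration and glutathione breakdown, 6 transcription factors of the ATF and C/EBP families, and 5 stress effectors.

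Expression was measured on 12 Affymetrix mouse arrays that read perfect-match probes, in 4 groups of 3. Activated Ezh2-knockout cells and activated wild-type cells had been stimulated through the T-cell receptor for 3 days; naive knockout cells and naive wild-type cells were used as freshly isolated. All mice were male C57BL/6 animals aged 4 weeks, and all cells were bead-purified CD8 T cells from spleen and lymph nodes, with a stated purity above 93%. Ezh2 was floxed in the knockout mice and removed by Cre under the CD4 promoter, which switches on while T cells develop in the thymus. Sources used here do not give whether wild-type mice bore Cre or floxed alleles. The series description names anti-CD3 with anti-CD28 as the stimulus, while the sample labels name anti-CD38 in place of anti-CD28. Each of 6 mice gave 1 naive and 1 activated sample, with mice 1 to 3 wild type and mice 4 to 6 knockout. There was no group cultured without stimulation, so effects of stimulation and of culture cannot be told apart. About 200 ng of RNA per sample was amplified before labelling.

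Cells that run short of amino acids, or that suffer endoplasmic reticulum or oxidative stress, phosphorylate the translation factor eIF2α, which lowers general protein synthesis and raises translation of the transcription factor ATF4. ATF4 pairs with C/EBP proteins on composite promoter sites and induces amino acid transporters, asparagine and serine synthesis, mitochondrial one-carbon enzymes and stress regulators such as CHOP and TRB3. Activated T cells take up amino acids and feed serine-derived one-carbon units into purine synthesis as they grow and divide, and in them several of the same genes also respond to mTORC1 and Myc. The arrays measured RNA and so did not read the translational step of ATF4 control.

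The composite site is called the C/EBP-ATF response element. Its matches are shown because the same genes are followed by RNA in the paragraphs after them. RefSeq promoter windows on GRCm38.p6, running from 250 bases before to 50 bases after each start, existed for 32 of the 37 genes. Slc7a5, Slc1a5, Slc38a1, Cth and Eif4ebp1 were not matched. The core letters TGATGNAA, read on both strands, occurred in 9 of the 32 (28.1%), against 4.51% of 27025 genes with a window. The 9 were Asns, Atf3, Chac1, Got1, Nupr1, Pycr1, Slc1a4, Slc7a11 and Trib3, with 2 matches in Slc7a11. The E-box letters CACGTG, a site read by Myc-family and other factors, occurred in 4 of the 32 (12.5%: Aldh18a1, Atic, Cbs and Nupr1), against 8.09% of genes, and no E-box match overlapped a response-element match. The set was listed in part for ATF4 roles, so a higher share of the response element than over all genes could follow from that choice. No test was made. A match is a description of letters and shows no binding. In the lines that follow, capitals mark the core and lower case the 11 bases on each side, read 5′ to 3′ on the strand of its gene, where the core may appear as its reverse complement.
Asns, chr6:7693214-7693243, minus strand: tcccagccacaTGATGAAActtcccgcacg
Atf3, chr1:191183425-191183454, minus strand: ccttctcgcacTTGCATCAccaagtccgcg
Chac1, chr2:119351038-119351067, plus strand: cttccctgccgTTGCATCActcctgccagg
Got1, chr19:43524689-43524718, minus strand: cattgcattggTTGCATCAtacaagcctcc
Nupr1, chr7:126625562-126625591, minus strand: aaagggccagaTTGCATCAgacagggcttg
Pycr1, chr11:120643833-120643862, minus strand: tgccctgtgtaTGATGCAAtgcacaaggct
Slc1a4, chr11:20332699-20332728, minus strand: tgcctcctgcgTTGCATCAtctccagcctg
Slc7a11, first match, chr3:50443661-50443690, minus strand: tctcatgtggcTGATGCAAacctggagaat
Slc7a11, second match, chr3:50443642-50443671, minus strand: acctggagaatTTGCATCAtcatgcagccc
Trib3, chr2:152344028-152344057, minus strand: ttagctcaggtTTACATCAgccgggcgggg
The core lay upstream of the start in 7 of the 9 genes, ran across the start in Slc1a4 (bases -4 to 4) and lay just after it in Trib3 (bases 15 to 22). The 250 bases before the start are shown in full for Asns, the classical target of the amino acid response, and for Atf3 and Atic. The genotype difference in activation change passed for Atf3 and Atic in opposite directions, but both calls were lost in most fits that left out 1 array. Capitals mark the response-element core in Asns (minus strand, chr6:7693210-7693459) and in Atf3 (minus strand, chr1:191183334-191183583), and the E-box in Atic (plus strand, chr1:71556906-71557155).
Asns: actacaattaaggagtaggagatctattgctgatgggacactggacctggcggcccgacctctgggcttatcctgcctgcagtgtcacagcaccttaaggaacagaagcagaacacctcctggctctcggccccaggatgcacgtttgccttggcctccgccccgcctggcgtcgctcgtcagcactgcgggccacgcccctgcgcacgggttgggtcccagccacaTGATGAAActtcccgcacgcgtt
Atf3: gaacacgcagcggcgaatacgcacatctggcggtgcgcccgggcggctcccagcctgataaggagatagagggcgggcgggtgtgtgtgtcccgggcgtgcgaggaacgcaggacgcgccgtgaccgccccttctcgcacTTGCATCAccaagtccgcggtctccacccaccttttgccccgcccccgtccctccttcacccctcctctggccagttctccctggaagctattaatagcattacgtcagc
Atic: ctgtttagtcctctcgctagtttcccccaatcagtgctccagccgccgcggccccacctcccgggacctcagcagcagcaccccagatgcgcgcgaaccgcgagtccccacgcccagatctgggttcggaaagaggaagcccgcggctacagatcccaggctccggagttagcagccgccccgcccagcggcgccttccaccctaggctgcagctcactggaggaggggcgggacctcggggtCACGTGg

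Values are log2 expression as deposited, with 1 probe set per gene, and an array's median lay between 0.905 and 0.976, so values near 1 are dim. The naive means of Asns, Pycr1, Cth, Chac1, Atf3, Atf5, Trib3, Eif4ebp1 and Nupr1 lay near or below that level, as did the naive wild-type mean of Aldh18a1 (0.95). The fitted changes of these genes on activation are therefore no exact folds and set no order among them. A difference passed when its Benjamini-Hochberg adjusted p over all 20962 genes was under 0.05 in limma, each of the 5 comparisons being adjusted on its own. The ± beside a change is its standard error, with 3 mice in each group. Levels are compared between samples within a gene, not between genes. Of the 37 probe sets, 24 carry the annotation's note of possible cross-hybridization and 2, those of Psat1 and Sesn2, an antisense mark. Ezh2 itself read 2.72, 3.59 and 3.78 in activated knockout cells and 5.56, 5.26 and 5.35 in activated wild-type cells, a difference of -2.02 ± 0.20 (adjusted p = 4.09e-05), and its difference in naive cells was -0.20 ± 0.20 (adjusted p = 0.845). Ezh2 RNA rose on activation in both, by 1.27 ± 0.20 in knockout cells (adjusted p = 0.000124) and by 3.09 ± 0.20 in wild-type cells (adjusted p = 1.15e-08). The sources used here do not give which exons Cre removes, so whether this probe set reads the deletion is unknown. The RNA came from bulk samples, in which fewer cells of a type and less RNA per cell cannot be told apart.

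Activation raised most of the set in both genotypes. In knockout cells 30 of the 37 genes rose and none fell, with a median change of 1.24, whereas 15.8% of all genes rose and the median of all genes was -0.020. In wild-type cells 30 rose and none fell, with a median of 1.33, whereas 14.8% of all genes rose and the median of all genes was -0.034. A called change of at least 2-fold was reached by 21 genes in knockout cells, where 8.16% of all genes reached it, and by 24 in wild-type cells, where 7.59% did. All 3 activated values lay above all 3 naive values for 31 of the 37 in knockout cells (18.7% of all genes) and 33 in wild-type cells (19.7%). The reverse order held for 1, Cbs, in knockout cells (17.3% of all genes) and for none in wild-type cells (22.7%). An unadjusted p under 0.05 was reached by 32 in each genotype (34.6% of all genes in knockout and 35.7% in wild-type cells). Of all genes called, 59.2% were higher in knockout and 55.4% in wild-type cells, or 66.6% and 66.5% with each array centred on its median. The same 29 genes rose in both. Nupr1 passed in knockout and not in wild-type cells, and its difference between responses did not pass (0.27 ± 0.12, adjusted p = 0.491). Atic passed in wild-type and not in knockout cells, and its difference between responses passed. That Atic probe set carries the cross-hybridization note. A second one, without the note, passed in knockout cells too (0.36, adjusted p = 0.0361 over all probe sets). The knockout change of Atic did pass with arrays centred on their medians (0.41, adjusted p = 0.039), with averaged probe sets (0.36, adjusted p = 0.0235), without activated knockout mouse 6 (0.51, adjusted p = 0.0094) and without activated wild-type mouse 2 (0.36, adjusted p = 0.0437). The other 6 genes (Slc7a11, Slc38a2, Gpt2, Cbs, Ddit3 and Cebpb) passed in neither. Of these, Slc38a2 (0.36, adjusted p = 0.0264) and Ddit3 (0.29, adjusted p = 0.025) passed in wild-type cells with centred arrays. Leaving out 1 array also gave calls, for Slc38a2 without activated knockout mouse 4 or 6, Ddit3 without activated wild-type mouse 3 and Gpt2 without activated wild-type mouse 2 in wild-type cells, and for Cebpb in knockout cells without naive wild-type mouse 3. Across the 37 genes the activation changes of the 2 genotypes had a Pearson r of 0.959, beside 0.918 over all genes; these are descriptions across genes, which are not replicates.

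**Figure D1:**
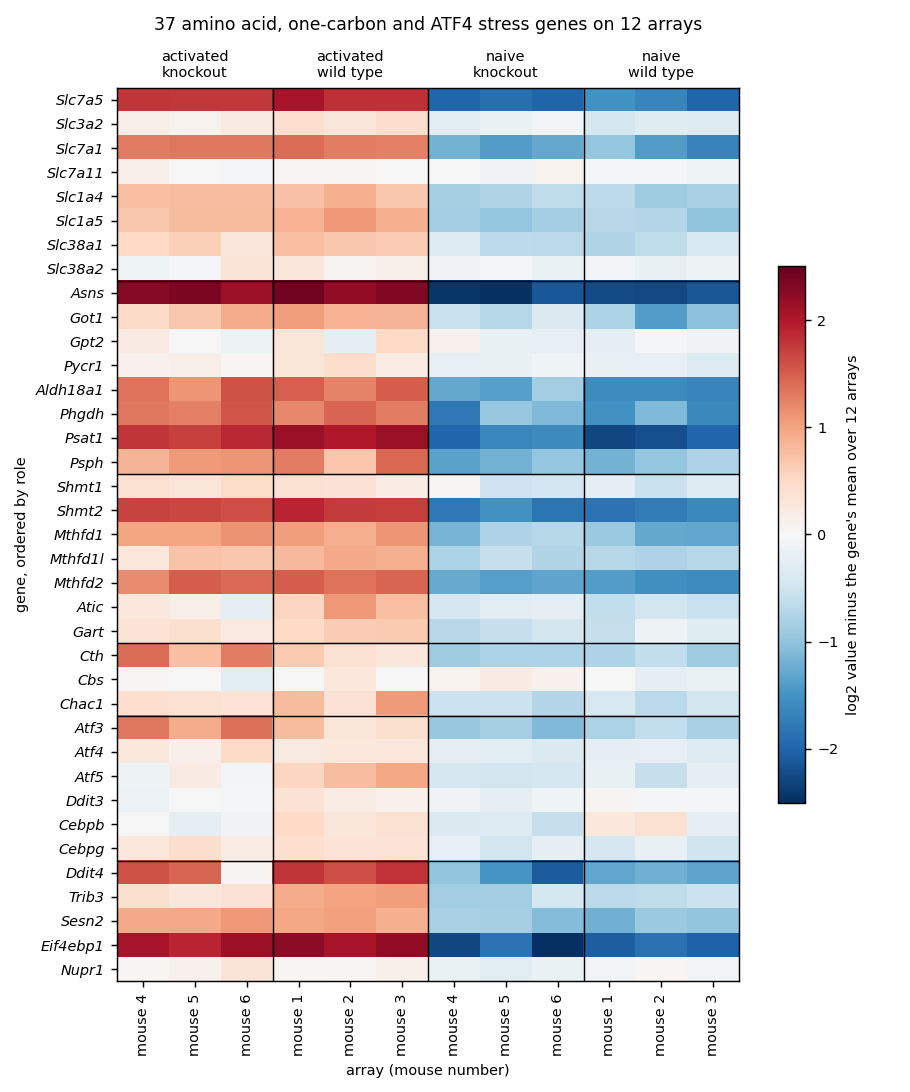
Each row is 1 gene, ordered by role, and each column 1 array; colour gives the log2 value minus the gene's mean over the 12 arrays. The 6 activated arrays stand above the 6 naive arrays for the 29 genes that rose in both genotypes, while Cbs, Cebpb, Ddit3, Gpt2, Slc38a2 and Slc7a11 show little contrast.

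Other cells and states moved with activation. Summed linear signal of 14 B-cell markers was 36.2 to 41.5 in activated knockout samples, against 115 to 156 in naive knockout samples, with 9 of the 14 lower. In wild-type samples it was 37.7 to 39.8 in activated cells, against 324 to 340 in naive cells, with 13 of the 14 lower. All 10 proliferation genes rose in both genotypes, and their sum was 599 to 635 in activated knockout and 559 to 619 in activated wild-type samples, against 104 to 126 in naive knockout and 123 to 138 in naive wild-type samples. Of 12 handling and early response genes, 4 rose and 8 fell in each genotype. CD8 T-cell markers fell, 7 of 8 in knockout and 6 of 8 in wild-type cells, with 1 higher in each. Their sum was 386 to 445 in activated knockout cells, against 822 to 910 in naive knockout cells, and 521 to 536 in activated wild-type cells, against 783 to 825 in naive wild-type cells. Of 12 myeloid markers 2 fell in knockout and 7 in wild-type cells. Of 7 NK-cell markers 3 fell in knockout cells, and 1 rose and 2 fell in wild-type cells. Of 6 dendritic-cell markers 2 rose in each genotype, Irf8 and Batf3. Another 2 fell, Siglech and Flt3 in knockout cells and Siglech and Xcr1 in wild-type cells. No marker was listed at 0, but 6 of the 14 B-cell markers lay at or below the array median in each activated group, 4 in naive knockout and 1 in naive wild-type cells. The part of these shifts in the results on amino acid and stress genes was not tested.

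Among the transporters, 6 of 8 rose in each genotype. Slc7a5, the catalytic chain of the LAT1 carrier that brings leucine and other large neutral amino acids into the cell, read 5.39, 5.36 and 5.36 in activated knockout cells and 5.66, 5.43 and 5.43 in activated wild-type cells, against 1.61, 1.71 and 1.60 in naive knockout cells and 2.09, 1.96 and 1.61 in naive wild-type cells. It rose by 3.73 ± 0.11 in knockout cells (adjusted p = 2.56e-12) and by 3.62 ± 0.11 in wild-type cells (adjusted p = 4.53e-12), and no activated sample overlapped a naive one. Slc3a2, the CD98 heavy chain that partners Slc7a5 at the membrane, rose by 0.32 ± 0.08 in knockout cells (adjusted p = 0.00898) and by 0.74 ± 0.08 in wild-type cells (adjusted p = 5.45e-06), though with quantile normalization its knockout change was -0.03. Slc7a1, a carrier of arginine and lysine, rose by 2.60 ± 0.13 in knockout cells (adjusted p = 1.06e-09) and by 2.66 ± 0.13 in wild-type cells (adjusted p = 8.46e-10). Both ASCT carriers rose as well. For Slc1a4, a carrier of serine, alanine and other small neutral amino acids, the rise was 1.50 ± 0.09 in knockout cells (adjusted p = 5.25e-09) and 1.55 ± 0.09 in wild-type cells (adjusted p = 4.05e-09). A further Slc1a4 probe set did not pass in knockout cells (0.35, adjusted p = 0.0698 over all probe sets). For Slc1a5, which carries glutamine, the rise was 1.64 ± 0.10 (adjusted p = 5.33e-09) in knockout cells and 1.77 ± 0.10 (adjusted p = 2.54e-09) in wild-type cells, while another probe set of the gene did not pass. Slc38a1, a sodium-coupled glutamine carrier, rose by 1.01 ± 0.12 in knockout cells (adjusted p = 8.46e-06) and by 1.28 ± 0.12 in wild-type cells (adjusted p = 7.97e-07).

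Slc7a11 and Slc38a2 did not pass in either genotype. Slc7a11, the cystine-glutamate exchanger xCT, stayed between 0.44 and 0.64 in activated knockout cells and between 0.50 and 0.52 in activated wild-type cells, against 0.40 to 0.58 in naive knockout and 0.39 to 0.46 in naive wild-type cells, all below the array medians. Slc38a2, an amino acid-responsive glutamine and alanine carrier, read 4.99, 5.04 and 5.42 in activated knockout cells and 5.38, 5.16 and 5.24 in activated wild-type cells, against 5.01, 5.05 and 4.92 in naive knockout cells and 5.03, 4.90 and 4.96 in naive wild-type cells on its brightest probe set, with changes of 0.16 ± 0.11 (adjusted p = 0.36) in knockout and 0.30 ± 0.11 (adjusted p = 0.0573) in wild-type cells. A second Slc38a2 probe set fell, by 1.53 in knockout cells (adjusted p = 2.27e-05) and by 1.20 in wild-type cells (adjusted p = 0.000247), and another fell by 0.38 in knockout cells (adjusted p = 0.0162), these p-values being adjusted over 45141 probe sets. The direction of Slc38a2 therefore depended on the probe set.

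Amino acid synthesis rose in 7 of its 8 genes in each genotype. Asns, asparagine synthetase, read 5.58, 5.66 and 5.45 in activated knockout cells and 5.70, 5.52 and 5.62 in activated wild-type cells, against 0.87, 0.73 and 1.17 in naive knockout cells and 1.06, 1.05 and 1.16 in naive wild-type cells. The activated and naive values lay far apart, with a rise by 4.64 ± 0.11 in knockout cells (adjusted p = 1.45e-13) and by 4.53 ± 0.11 in wild-type cells (adjusted p = 2.37e-13). As the naive values sit at about the array median, no linear fold is given. Its promoter core is the one marked TGATGAAA in the sequence given earlier. All 3 enzymes of serine synthesis rose. Phgdh, which opens the pathway, read 7.46, 7.40 and 7.73 in activated knockout cells and 7.36, 7.60 and 7.42 in activated wild-type cells, against 4.36, 5.20 and 5.05 in naive knockout cells and 4.63, 5.05 and 4.53 in naive wild-type cells. Phgdh rose by 2.66 ± 0.19 in knockout cells (adjusted p = 2.64e-08) and by 2.72 ± 0.19 in wild-type cells (adjusted p = 2.35e-08). Psat1, the second step, read 6.10, 6.02 and 6.20 in activated knockout cells and 6.47, 6.33 and 6.47 in activated wild-type cells, against 2.33, 2.69 and 2.72 in naive knockout cells and 2.05, 2.12 and 2.34 in naive wild-type cells. All Psat1 values were higher after activation, with rises of 3.53 ± 0.11 in knockout cells (adjusted p = 5.06e-12) and 4.25 ± 0.11 in wild-type cells (adjusted p = 7.6e-13). Psph, the final phosphatase, rose by 2.17 ± 0.17 in knockout cells (adjusted p = 6.88e-08) and by 2.12 ± 0.17 in wild-type cells (adjusted p = 1.05e-07).

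Proline synthesis moved the same way. Aldh18a1, which makes the proline precursor from glutamate, rose by 2.53 ± 0.14 in knockout cells (adjusted p = 2.17e-09) and by 3.01 ± 0.14 in wild-type cells (adjusted p = 3.65e-10). Pycr1, the last step in mitochondria, was dim and rose by 0.26 ± 0.09 in knockout cells (adjusted p = 0.0348) and by 0.55 ± 0.09 in wild-type cells (adjusted p = 0.00012). The knockout call of Pycr1 was lost in 4 of the 12 fits that left out 1 array, those without mouse 4 or mouse 5 of the naive or activated knockout cells, while its change was 0.24 to 0.29 over all 12 fits and the adjusted p of the lost calls 0.0703 to 0.101. Got1, the cytosolic aspartate aminotransferase, rose by 1.24 ± 0.15 in knockout cells (adjusted p = 8.11e-06) and by 1.99 ± 0.15 in wild-type cells (adjusted p = 5.5e-08). Gpt2, the mitochondrial alanine aminotransferase, read 1.67, 1.46 and 1.34 in activated knockout cells and 1.77, 1.22 and 1.96 in activated wild-type cells, against 1.57, 1.27 and 1.25 in naive knockout cells and 1.22, 1.44 and 1.37 in naive wild-type cells. These ranges overlapped, and its changes, 0.13 ± 0.16 (adjusted p = 0.657) in knockout and 0.30 ± 0.16 (adjusted p = 0.185) in wild-type cells, did not pass.

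**Figure D2:**
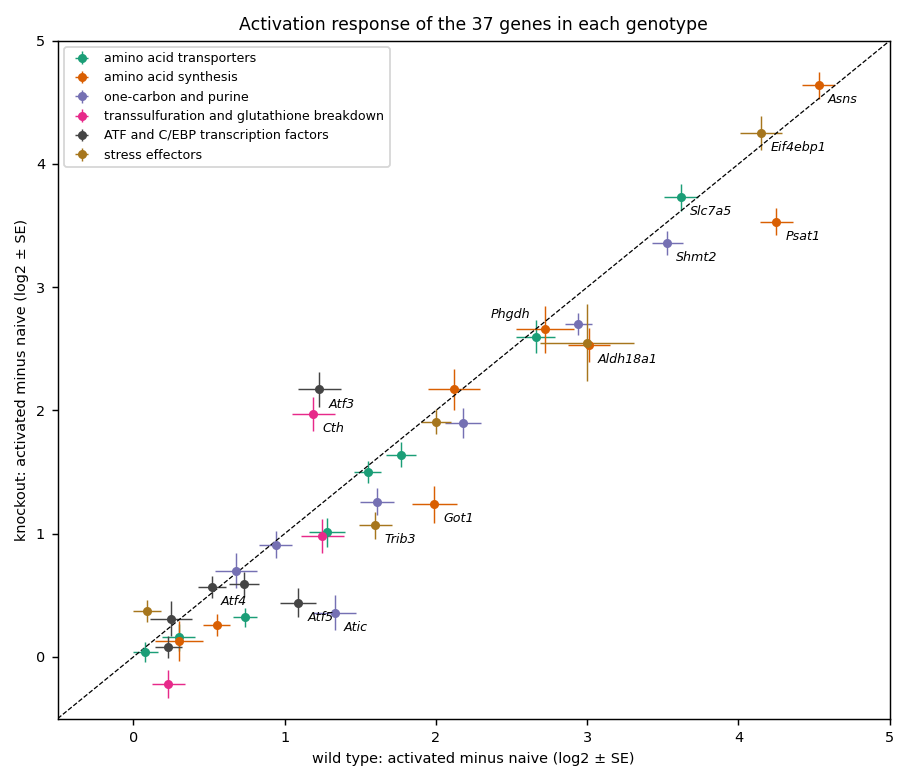
Activation change of each of the 37 genes in knockout cells (vertical axis, log2) against wild-type cells (horizontal axis, log2), with standard errors and a line of equality. Asns, Eif4ebp1 and Slc7a5 lie near the line at the upper end, Atic, Got1 and Psat1 below it, and Atf3 and Cth above it.

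One-carbon metabolism rose in every mitochondrial member. Shmt2, which splits serine to glycine in mitochondria and loads folate with a one-carbon unit, read 5.90, 5.88 and 5.82 in activated knockout cells and 6.12, 5.96 and 5.94 in activated wild-type cells, against 2.43, 2.70 and 2.39 in naive knockout cells and 2.37, 2.46 and 2.61 in naive wild-type cells. Shmt2 rose by 3.36 ± 0.10 in knockout cells (adjusted p = 1.93e-12) and by 3.53 ± 0.10 in wild-type cells (adjusted p = 1.26e-12). Mthfd2, the next mitochondrial enzyme and one that most resting adult tissues express little, read 5.59, 5.92 and 5.83 in activated knockout cells and 5.92, 5.77 and 5.87 in activated wild-type cells, against 3.14, 3.03 and 3.09 in naive knockout cells and 3.02, 2.87 and 2.84 in naive wild-type cells. Mthfd2 rose by 2.70 ± 0.09 in knockout cells (adjusted p = 1.65e-11) and by 2.94 ± 0.09 in wild-type cells (adjusted p = 7.87e-12). In neither gene did an activated sample reach down to a naive one. Mthfd1l, which releases mitochondrial formate, rose by 1.26 ± 0.11 in knockout cells (adjusted p = 2.54e-07) and by 1.61 ± 0.11 in wild-type cells (adjusted p = 2.01e-08). On the cytosolic side, Mthfd1, the trifunctional enzyme that reuses that formate, rose by 1.90 ± 0.12 in knockout cells (adjusted p = 1.2e-08) and by 2.18 ± 0.12 in wild-type cells (adjusted p = 3.11e-09), and Shmt1, the cytosolic counterpart of Shmt2, rose by 0.70 ± 0.14 in knockout cells (adjusted p = 0.000874) and by 0.68 ± 0.14 in wild-type cells (adjusted p = 0.00117). With quantile normalization Shmt1 did not pass, at 0.42 in knockout cells (adjusted p = 0.0598) and 0.37 in wild-type cells (adjusted p = 0.0977). Gart, which uses formyl-folate in purine synthesis, rose by 0.91 ± 0.11 in knockout cells (adjusted p = 1.22e-05) and by 0.94 ± 0.11 in wild-type cells (adjusted p = 9.3e-06). Atic, which closes the purine ring, rose by 1.33 ± 0.14 in wild-type cells (adjusted p = 2.4e-06), while its change in knockout cells was 0.36 ± 0.14 (adjusted p = 0.0745).

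Transsulfuration was split. Cth, which makes cysteine from cystathionine, read 2.67, 2.04 and 2.57 in activated knockout cells and 1.93, 1.66 and 1.57 in activated wild-type cells, against 0.39, 0.49 and 0.49 in naive knockout cells and 0.52, 0.66 and 0.40 in naive wild-type cells. Cth rose by 1.97 ± 0.14 in knockout cells (adjusted p = 3.73e-08) and by 1.19 ± 0.14 in wild-type cells (adjusted p = 8.91e-06). Cbs, the enzyme before it, read 1.52, 1.46 and 1.19 in activated knockout cells and 1.47, 1.73 and 1.47 in activated wild-type cells, against 1.57, 1.68 and 1.59 in naive knockout cells and 1.48, 1.22 and 1.30 in naive wild-type cells, and its changes were -0.22 ± 0.11 (adjusted p = 0.164) in knockout and 0.23 ± 0.11 (adjusted p = 0.147) in wild-type cells. Chac1, which degrades glutathione and is a strong ATF4 target, read 1.72, 1.68 and 1.65 in activated knockout cells and 2.10, 1.67 and 2.38 in activated wild-type cells, against 0.77, 0.78 and 0.57 in naive knockout cells and 0.90, 0.64 and 0.84 in naive wild-type cells. The values of Chac1 did not overlap between activated and naive cells, and it rose by 0.98 ± 0.14 in knockout cells (adjusted p = 5.18e-05) and by 1.25 ± 0.14 in wild-type cells (adjusted p = 4.41e-06).

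Among the 6 transcription factors, 4 rose in each genotype. Atf4, the central factor of the response, read 7.10, 6.95 and 7.30 in activated knockout cells and 7.06, 7.10 and 7.10 in activated wild-type cells, against 6.60, 6.57 and 6.47 in naive knockout cells and 6.58, 6.63 and 6.48 in naive wild-type cells. Its RNA was well above the array medians in naive cells and rose moderately, by 0.57 ± 0.09 in knockout cells (adjusted p = 0.000185) and by 0.52 ± 0.09 in wild-type cells (adjusted p = 0.000428). Another Atf4 probe set did not pass. Atf5, a related factor that is also controlled through translation, rose by 0.44 ± 0.12 in knockout cells (adjusted p = 0.0153) and by 1.09 ± 0.12 in wild-type cells (adjusted p = 5.46e-06), and the knockout call was lost without activated knockout mouse 5 (0.34, adjusted p = 0.0823). Cebpg, a dimer partner of ATF4, rose by 0.59 ± 0.10 in knockout cells (adjusted p = 0.000371) and by 0.73 ± 0.10 in wild-type cells (adjusted p = 5.31e-05), although one further probe set passed in neither genotype and another did not pass in knockout cells. Atf3, a stress-induced factor that acts downstream of ATF4, rose by 2.17 ± 0.14 in knockout cells (adjusted p = 1.03e-08) and by 1.23 ± 0.14 in wild-type cells (adjusted p = 4.74e-06). Ddit3, which encodes CHOP, read 2.70, 2.86 and 2.79 in activated knockout cells and 3.20, 3.04 and 2.95 in activated wild-type cells, against 2.75, 2.62 and 2.73 in naive knockout cells and 2.92, 2.79 and 2.80 in naive wild-type cells, with changes of 0.08 ± 0.09 (adjusted p = 0.591) in knockout and 0.23 ± 0.09 (adjusted p = 0.072) in wild-type cells. Cebpb, another partner of ATF4, changed by 0.31 ± 0.14 (adjusted p = 0.125) in knockout and 0.25 ± 0.14 (adjusted p = 0.209) in wild-type cells.

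The stress effectors include brakes on growth and translation. Eif4ebp1, whose protein 4E-BP1 holds the cap-binding factor eIF4E, read 5.25, 5.11 and 5.33 in activated knockout cells and 5.43, 5.25 and 5.42 in activated wild-type cells, against 0.92, 1.36 and 0.66 in naive knockout cells and 1.13, 1.34 and 1.17 in naive wild-type cells. The separation was wide, and the gene rose by 4.25 ± 0.14 in knockout cells (adjusted p = 7.75e-12) and by 4.15 ± 0.14 in wild-type cells (adjusted p = 1.25e-11), while another of its probe sets did not pass. Sesn2, a leucine-sensing brake on mTORC1, rose by 1.91 ± 0.10 in knockout cells (adjusted p = 1.17e-09) and by 2.00 ± 0.10 in wild-type cells (adjusted p = 7.63e-10). Trib3, a pseudokinase that ATF4 induces and that restrains ATF4 in turn, read 2.10, 1.99 and 2.06 in activated knockout cells and 2.63, 2.71 and 2.76 in activated wild-type cells, against 0.84, 0.84 and 1.27 in naive knockout cells and 1.03, 1.08 and 1.17 in naive wild-type cells. Trib3 rose by 1.07 ± 0.11 in knockout cells (adjusted p = 1.38e-06) and by 1.60 ± 0.11 in wild-type cells (adjusted p = 1.88e-08). Ddit4, also called REDD1, a brake on mTORC1, read 6.19, 6.05 and 4.67 in activated knockout cells and 6.37, 6.21 and 6.40 in activated wild-type cells, against 3.61, 3.12 and 2.52 in naive knockout cells and 3.30, 3.40 and 3.27 in naive wild-type cells. It rose by 2.55 ± 0.31 in knockout cells (adjusted p = 1.1e-05) and by 3.00 ± 0.31 in wild-type cells (adjusted p = 2.19e-06), and mouse 6 gave the lowest Ddit4 value of the knockout mice in both states. Nupr1, a small chromatin-associated stress protein, rose by 0.37 ± 0.09 in knockout cells (adjusted p = 0.0047), and its change in wild-type cells was 0.09 ± 0.09 (adjusted p = 0.503).

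Other genes of these pathways, on separate lists, were counted in the same fit. Of 24 further genes reported as ATF4 targets, 17 rose and 2 fell in knockout cells, and 16 rose and 2 fell in wild-type cells. The tRNA synthetase Gars was among the largest rises in both, at 2.23 ± 0.16 in knockout cells (adjusted p = 4.05e-08) and 2.72 ± 0.16 in wild-type cells (adjusted p = 5.52e-09). Ppp1r15a, which encodes the GADD34 subunit that removes the phosphate from eIF2α, went the other way. It fell by 3.12 ± 0.14 in knockout cells (adjusted p = 1.72e-10) and by 3.12 ± 0.14 in wild-type cells (adjusted p = 1.95e-10), alongside the early response gene Fos, which fell by 5.55 ± 0.08 in knockout cells (adjusted p = 2.42e-15) and by 5.76 ± 0.08 in wild-type cells (adjusted p = 1.4e-15). Of the 16 genes of eIF2, its kinases and its phosphatases, 8 rose and 3 fell in knockout cells, and 7 rose and 2 fell in wild-type cells. Ppp1r15a is counted on this list too.

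Of 20 endoplasmic reticulum chaperones and other unfolded-protein-response genes, 14 rose and 1 fell in knockout cells, and 12 rose and 2 fell in wild-type cells. Xbp1, a transcription factor of that response, rose by 1.99 ± 0.17 in knockout cells (adjusted p = 2.34e-07) and by 1.69 ± 0.17 in wild-type cells (adjusted p = 1.6e-06). Dnajb9, a reticulum co-chaperone, fell by 3.55 ± 0.14 in knockout cells (adjusted p = 4.23e-11) and by 3.42 ± 0.14 in wild-type cells (adjusted p = 7.83e-11). Of 13 other purine synthesis genes, 9 rose and 1 fell in knockout cells and 10 rose and 1 fell in wild-type cells, Impdh2 by 1.63 ± 0.09 in knockout cells (adjusted p = 1.75e-09) and 1.85 ± 0.09 in wild-type cells (adjusted p = 4.86e-10). Glutathione and NRF2 genes rose in 9 of 16 in knockout and 7 of 16 in wild-type cells, with 1 lower in each.

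Smaller shares of the wider amino acid and folate lists passed. Of 22 other folate, glycine and methionine genes, 7 rose and 1 fell in each genotype, Gcsh of the glycine cleavage system by 2.14 ± 0.10 in knockout cells (adjusted p = 5.81e-10) and 2.40 ± 0.10 in wild-type cells (adjusted p = 1.95e-10). Of 22 other amino acid enzymes, 6 rose and none fell in knockout cells and 7 rose and 1 fell in wild-type cells. Bcat1, the cytosolic branched-chain aminotransferase, rose by 4.06 ± 0.10 in knockout cells (adjusted p = 1.54e-13) and by 4.07 ± 0.10 in wild-type cells (adjusted p = 2.37e-13). Of 21 other transporters, 1 rose and 2 fell in knockout cells and 2 rose and 3 fell in wild-type cells. Slc7a3, a further carrier of arginine and lysine, rose by 1.77 ± 0.17 in knockout cells (adjusted p = 6.48e-07) and by 1.28 ± 0.17 in wild-type cells (adjusted p = 2.21e-05), and Slc43a2, a large neutral amino acid carrier, fell by 1.26 ± 0.12 in knockout cells (adjusted p = 5.7e-07) and by 1.68 ± 0.12 in wild-type cells (adjusted p = 2.79e-08). Over all genes 26.7% passed in either direction in knockout and 26.8% in wild-type cells, so in knockout cells the 22 enzymes passed at about the rate of all genes and the 21 transporters below it.

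Before activation, the knockout left the set with no call. None of the 37 genes passed in naive knockout cells against naive wild-type cells in limma, where 1.09% of all genes did (0.62% higher and 0.468% lower), and 8 of the 37 had an unadjusted p under 0.05, as had 9.49% of all genes. All 3 knockout values lay above all 3 wild-type values for 6 of the 37 (6.98% of all genes) and below them for 4 (8.02%). Changes ran from -0.55 to 0.53 with a median of 0.03. The lowest adjusted p belonged to Cebpb, which read 2.43, 2.47 and 2.21 in naive knockout cells, against 3.04, 3.17 and 2.55 in naive wild-type cells, a difference of -0.55 ± 0.14 (adjusted p = 0.0771). Those ranges did not overlap, and without naive wild-type mouse 3, the lowest wild-type sample, the difference was -0.74 and passed (adjusted p = 0.00565). Psat1 read 2.33, 2.69 and 2.72 in naive knockout cells, against 2.05, 2.12 and 2.34 in naive wild-type cells, a difference of 0.41 ± 0.11 (adjusted p = 0.126), and without naive knockout mouse 4 it was 0.53 and passed (adjusted p = 0.019). Among the others, the difference was -0.24 ± 0.11 (adjusted p = 0.523) for Slc7a5, -0.17 ± 0.11 (adjusted p = 0.709) for Asns and 0.13 ± 0.19 (adjusted p = 0.906) for Phgdh. It was 0.03 ± 0.10 (adjusted p = 0.969) for Shmt2, 0.18 ± 0.09 (adjusted p = 0.62) for Mthfd2 and -0.09 ± 0.14 (adjusted p = 0.912) for Chac1. For the regulators it was -0.02 ± 0.09 (adjusted p = 0.986) for Atf4, which turned to 0.01 with quantile normalization or averaged probe sets, -0.13 ± 0.09 (adjusted p = 0.721) for Ddit3 and -0.11 ± 0.11 (adjusted p = 0.845) for Trib3. The 95% interval of Atf4 ran from -0.21 to 0.18 and that of Asns from -0.40 to 0.06. Beside this, 5 of 14 B-cell markers and 4 of 12 myeloid markers were lower in naive knockout cells, with B-cell sums of 115 to 156 in knockout and 324 to 340 in wild-type samples and myeloid sums of 24.6 to 25.6 in knockout and 33.6 to 37.9 in wild-type samples. Of 7 NK-cell markers 2 were higher (Klra8 and Eomes) and 2 lower, with sums of 38.6 to 73.5 in knockout and 39 to 40.1 in wild-type samples, and of 6 dendritic-cell markers 2 were lower. The part of these shifts was not tested. Of the other pathway genes, 1 passed: Eif2ak2, the eIF2α kinase PKR, was higher by 0.57 ± 0.13 (adjusted p = 0.0432).

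After activation, 5 of the 37 genes differed between knockout and wild-type cells (13.5%, where 1.32% of all genes did), and 14 had an unadjusted p under 0.05, as had 10.1% of all genes. Atf5, Trib3 and Atic were lower in knockout cells, as were 0.372% of all genes, and Atf3 and Cth were higher, as were 0.949%. The median change of the 37 genes was -0.14, beside 0.005 for all genes. Estimates lay below 0 in 27 of the 37, beside 48.2% of all genes, and in 15 of the 37 all 3 knockout values were below all 3 wild-type values, as in 6.34% of all genes. The opposite order held for 2 of the 37 and 7.96% of all genes. The genes share their arrays, so these counts are descriptions and not independent observations.

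Atf5 read 1.27, 1.59 and 1.33 in activated knockout cells, against 1.94, 2.17 and 2.36 in activated wild-type cells. The ranges did not overlap, and the difference was -0.76 ± 0.12 (adjusted p = 0.00523). Trib3 read 2.10, 1.99 and 2.06 in activated knockout cells, against 2.63, 2.71 and 2.76 in activated wild-type cells. Its knockout values lay within a narrow band below every wild-type value, and the difference was -0.65 ± 0.11 (adjusted p = 0.00576). These 2 calls were kept in all 12 fits that left out 1 array, although a second, dimmer Trib3 probe set gave -0.52 without passing (adjusted p = 0.0917 over all probe sets). Both Trib3 probe sets carry the cross-hybridization note, so Trib3 could not be tested without marked probe sets, where Atf5 still passed. In naive cells, the values of both genes overlapped between genotypes.

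Atic read 4.32, 4.21 and 3.82 in activated knockout cells, against 4.59, 5.14 and 4.82 in activated wild-type cells. All 3 knockout samples were lower, a difference of -0.73 ± 0.14 (adjusted p = 0.0158), and the call was lost in 3 of the 12 fits that left out 1 array, without activated knockout mouse 6 or activated wild-type mouse 2 or 3 (-0.75 to -0.59, adjusted p 0.0553 to 0.0783). A second Atic probe set, which has no cross-hybridization note, gave -0.44 (adjusted p = 0.123 over all probe sets). Atf3 read 3.29, 2.89 and 3.33 in activated knockout cells, against 2.75, 2.26 and 2.36 in activated wild-type cells, a difference of 0.71 ± 0.14 (adjusted p = 0.0174), and Cth read 2.67, 2.04 and 2.57 in activated knockout cells, against 1.93, 1.66 and 1.57 in activated wild-type cells, a difference of 0.71 ± 0.14 (adjusted p = 0.0223). Neither gene overlapped between genotypes. The only Atf3 probe set carries the cross-hybridization note, so Atf3 could not be tested without marked probe sets, where Cth still passed. The calls of Atf3 and Cth were both lost without activated knockout mouse 4 or 6 or activated wild-type mouse 2 or 3, with changes over all 12 fits of 0.62 to 0.86 for Atf3 and 0.59 to 0.90 for Cth. Lost calls had adjusted p of 0.0593 to 0.0939 for Atf3 and 0.0731 to 0.121 for Cth. With only the 6 activated arrays in the fit, Atic (adjusted p = 0.093), Atf3 (adjusted p = 0.0842) and Cth (adjusted p = 0.108) did not pass.

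**Figure D3:**
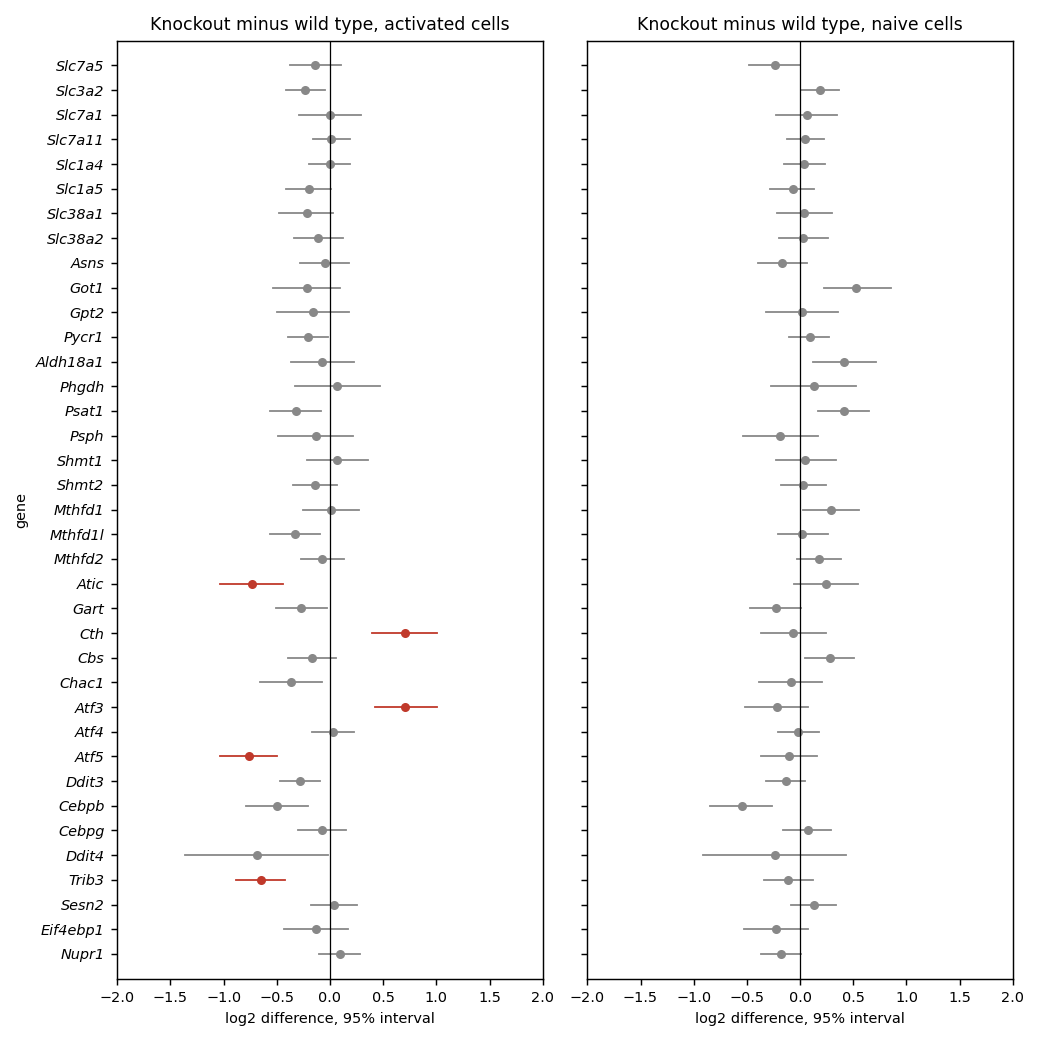
Knockout minus wild-type difference (log2, with 95% intervals) for each of the 37 genes, in activated cells and in naive cells; red marks a difference that passed. In activated cells Atf5, Trib3 and Atic are red on the lower side and Atf3 and Cth on the higher side, and in naive cells none is red.

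The remaining 32 genes did not pass in activated cells, with differences from -0.69 for Ddit4 to 0.09 for Nupr1. Asns differed by -0.05 ± 0.11 (adjusted p = 0.974), with a 95% interval of -0.28 to 0.18, and Atf4 by 0.03 ± 0.09 (adjusted p = 0.986), with an interval of -0.17 to 0.23; averaged over its probe sets the Atf4 difference was -0.06. Differences were 0.07 ± 0.19 (adjusted p = 0.981) for Phgdh, -0.32 ± 0.11 (adjusted p = 0.277) for Psat1 and -0.14 ± 0.11 (adjusted p = 0.836) for Slc7a5. They were -0.14 ± 0.10 (adjusted p = 0.777) for Shmt2, -0.07 ± 0.09 (adjusted p = 0.941) for Mthfd2, -0.37 ± 0.14 (adjusted p = 0.331) for Chac1 and -0.28 ± 0.09 (adjusted p = 0.186) for Ddit3. Chac1 was lower and passed without activated wild-type mouse 2 (-0.56, adjusted p = 0.042), and was -0.20 without activated wild-type mouse 3 (adjusted p = 0.781). Cebpb differed by -0.50 ± 0.14 (adjusted p = 0.113), and passed without naive wild-type mouse 3 (adjusted p = 0.0287). Ddit3 is an example of non-overlapping values without a call, at 2.70, 2.86 and 2.79 in activated knockout cells, against 3.20, 3.04 and 2.95 in activated wild-type cells. Ddit4 rested on 1 animal: it read 6.19, 6.05 and 4.67 in activated knockout cells, against 6.37, 6.21 and 6.40 in activated wild-type cells, a difference of -0.69 ± 0.31 (adjusted p = 0.466), and without activated knockout mouse 6 it was -0.21 (adjusted p = 0.888). A second Eif4ebp1 probe set was lower in knockout cells by 0.57 on the log2 scale (adjusted p = 0.0484 over all probe sets), where the brightest one gave -0.13 ± 0.14 (adjusted p = 0.902).

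Beside these differences, 5 of 8 CD8 T-cell markers were lower in activated knockout cells, with sums of 386 to 445 in knockout and 521 to 536 in wild-type samples. Cd2, a T-cell adhesion receptor, was lower by 0.96 ± 0.08 (adjusted p = 1.28e-05) and Cd8b1, a chain of the CD8 co-receptor, by 0.54 ± 0.10 (adjusted p = 0.0132). Of 7 NK-cell markers, only Eomes passed, higher by 1.01 ± 0.18 (adjusted p = 0.00892). The other 6 did not, among them Ncr1 (-0.02, adjusted p = 0.992), Klrb1c (0.14, adjusted p = 0.801) and Tyrobp (0.02, adjusted p = 0.994). Sums of the 7, which include Eomes, were 27.1 to 29.7 in knockout and 19.7 to 22.4 in wild-type samples. Of 14 B-cell, 12 myeloid and 10 proliferation genes none passed in limma, and 2 of 12 handling and early response genes, Hspa1b and Ier3, were higher. The part of these shifts in the 5 calls was not tested. Outside the 37, Sars, a seryl-tRNA synthetase reported as an ATF4 target, was lower by 0.50 ± 0.11 (adjusted p = 0.033). Srxn1, sulfiredoxin, was higher by 0.65 ± 0.13 (adjusted p = 0.0255), and Gss, glutathione synthetase, was higher by 0.43 ± 0.10 (adjusted p = 0.0396).

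The difference between genotypes in the activation response itself passed for 3 of the 37 genes (8.11%, where 0.868% of all genes passed), with 13 at an unadjusted p under 0.05, as had 9.81% of all genes. Atic had a smaller response in knockout cells, a difference of -0.97 ± 0.20 (adjusted p = 0.0302). Its second probe set, which has no cross-hybridization note, gave -0.67 without passing (adjusted p = 0.103 over all probe sets). Psat1 rose less in knockout cells, a difference of -0.72 ± 0.16 (adjusted p = 0.0475). Its rise was 3.53 ± 0.11 in knockout and 4.25 ± 0.11 in wild-type cells, with lower activated values and a higher naive mean in knockout cells. A second Psat1 probe set gave -0.54 (adjusted p = 0.434 over all probe sets). Adjusted over all probe sets, the brightest Psat1 set did not pass either (adjusted p = 0.0563). Atf3 rose more in knockout cells, a difference of 0.93 ± 0.20 (adjusted p = 0.0348). Over all genes the knockout response minus the wild-type response was positive and passed for 0.606%, and negative and passed for 0.262%. The median of the 37 response differences was -0.14, beside 0.012 for all genes. Estimates lay below 0 in 27 of the 37, beside 47.1% of all genes.

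All 3 response calls were fragile. Leaving out 1 array at a time lost Atic in 7 of 12 fits (changes of -1.10 to -0.82), Psat1 in 9 (-0.85 to -0.65) and Atf3 in 9 (0.84 to 1.08), with adjusted p of the lost calls between 0.0528 and 0.13. With mouse as a replicate block, Atic passed, whereas Psat1 (adjusted p = 0.0595) and Atf3 (adjusted p = 0.0864) did not. Atf5 and Trib3, which differed between genotypes after activation, had response differences of -0.66 ± 0.18 (adjusted p = 0.123) for Atf5 and -0.54 ± 0.15 (adjusted p = 0.151) for Trib3. That of Cth was 0.78 ± 0.20 (adjusted p = 0.109). For the others it was 0.12 ± 0.15 (adjusted p = 0.887) for Asns, 0.05 ± 0.13 (adjusted p = 0.962) for Atf4 and -0.14 ± 0.12 (adjusted p = 0.798) for Ddit3. It was 0.10 ± 0.16 (adjusted p = 0.911) for Slc7a5, -0.06 ± 0.26 (adjusted p = 0.976) for Phgdh and -0.28 ± 0.20 (adjusted p = 0.74) for Chac1. The response difference was -0.17 ± 0.14 (adjusted p = 0.789) for Shmt2 and -0.24 ± 0.13 (adjusted p = 0.599) for Mthfd2. CD8 T-cell markers moved here too, with 3 of 8 lower, and 3 of 14 B-cell and 2 of 12 myeloid markers higher. Of 7 NK-cell markers Tyrobp was higher (2.52) and Klra8 (-3.46) and Eomes (-1.62) lower, and of the handling genes Hspa1b was higher (1.43). The part of these shifts was not tested. Among other purine genes Ppat, the first committed enzyme of purine synthesis, rose less in knockout cells by 0.77 ± 0.16 (adjusted p = 0.0335).

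**Figure D4:**
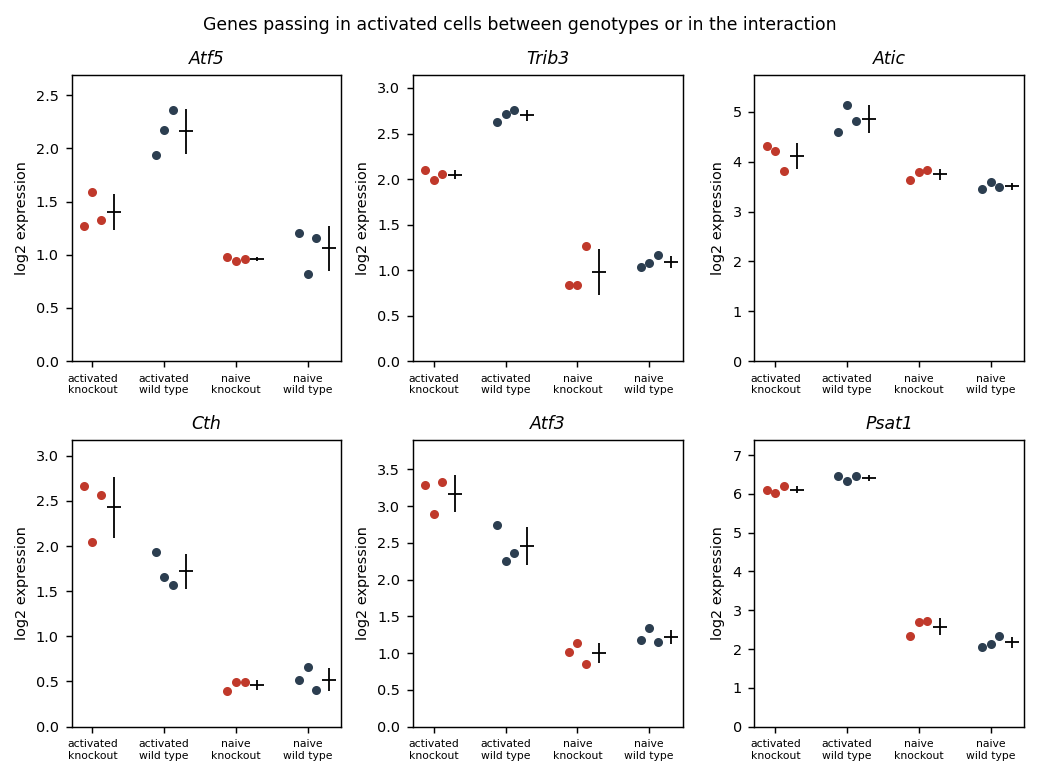
Log2 values of the 6 genes that passed in a knockout or response comparison (Atf5, Trib3, Atic, Atf3, Cth and Psat1), 1 point per mouse, with activated cells left of naive cells; red points are knockout and dark points wild type, and bars are means with SD (n = 3). Activated knockout points lie below activated wild-type points for Atf5, Trib3, Atic and Psat1 and above them for Atf3 and Cth.

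Over the 12 arrays, most of the set followed one shared profile. The Pearson r of a gene with the mean of the 37 standardized genes, which includes the gene itself, was lowest for Cbs (0.06), Slc7a11 (0.45), Cebpb (0.49), Gpt2 (0.52) and Ddit3 (0.59). Outside the set, the genes most like that mean were Lars (0.996), Tbx21 (0.995), Hirip3 (0.994), Cdk6 (0.994) and Ptma (0.993). The arrays fall into activated and naive clusters, so these r values describe that contrast and carry no test.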

How the data were processed

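Per the file headers, the authors processed 12 arrays with RMA on perfect-match probes and deposited log2 values for 45141 probe sets; sources used here give no software version. Probe sets naming several genes or none were left out, and the brightest probe set over the 12 arrays stood for each of 20962 genes. Symbols came from the deposited annotation, updated through RefSeq for 18394 genes. Group means were fitted over all 12 arrays with limma 3.58.1 (R 4.3.3). The members and pathway lists were chosen with earlier results of these data known. By rule, every member was named, with SE and adjusted p where it passed, and a fixed panel of 10 was given in each knockout comparison. Naive and activated samples of a mouse are paired by animal; their deviations correlated at -0.10 to 0.13. Alternatives covered probe-set choice, scaling, variance model, arrays used, mouse as a block and leaving out each array. Tested on simulated data over 20962 genes of the activated comparison, the fit recovered 52% of genes changed by 0.5 on the log2 scale, 100% of those raised by 1 and 96% of those lowered by 1, with 4 false calls. The 3 arrays per group limit the precision; no read depth applies.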

Additional observations from a re-analysis of the deposited data

Results flagged for a closer look

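The difference between genotypes in the activation response passed for 3 genes, and all 3 calls were fragile. The knockout response minus the wild-type response was -0.72 for Psat1 (adjusted p = 0.0475), -0.97 for Atic (adjusted p = 0.0302) and 0.93 for Atf3 (adjusted p = 0.0348). Second probe sets of Psat1 (-0.54) and Atic (-0.67) did not pass, and the only Atf3 probe set carries the cross-hybridization note. Leaving out 1 array at a time lost the call of Atic in 7 of 12 fits and those of Psat1 and Atf3 in 9 each. No group held enough samples for a check of single outlying samples.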

How the results depend on the processing

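Median centring, a filter on dim probe sets and the workbook values moved no count of called members by over 1.5 times, though centring added Slc38a2 and Ddit3 in wild-type activation and Atic in knockout activation. Leaving out probe sets marked antisense or cross-hybridizing left 21 members and moved most. Members called were then 15 on the higher side in each activation comparison, 1 higher (Cth) and 1 lower (Atf5) in activated cells, and 0 in either direction of the response difference. Atf3, Trib3 and Psat1 have no unmarked probe set and were not tested there, so their absence is no failed call. Atic was tested on its second probe set and did not pass. Over all genes the same restriction gave 1483 higher on activation in knockout and 1367 in wild-type cells, 84 higher and 43 lower in naive cells, 120 higher and 41 lower in activated cells, and 58 higher and 36 lower in the response difference; fewer genes were tested. Averaging probe sets gave 1 member lower in each activation comparison (Slc38a2) and 1 lower in the response difference. Quantile normalization gave 1 member and 151 genes lower in naive cells and 1 member lower in the response difference. Intensity-trended, robust variances gave 2 members higher and 1 lower there. The replicate block for mouse gave 0 higher and 1 lower there (Atic, -0.97, adjusted p = 0.0416), and changed no other member call. With only the arrays compared, activated cells had 0 members higher, and 116 genes higher and 37 lower. Of genes called, 66.6% were higher in knockout activation and 66.5% in wild-type activation with arrays centred, against 59.2% and 55.4% as deposited.

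Leaving out 1 array at a time gave 0 to 1 members higher and 0 to 1 lower in naive cells, 0 to 2 higher and 2 to 4 lower in activated cells, and 0 to 2 higher and 0 to 2 lower in the response difference. Genes called numbered 68 to 177 higher and 64 to 123 lower in naive cells, 104 to 230 higher and 34 to 91 lower in activated cells, and 25 to 98 lower in the response difference.

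Among the called changes and those of the fixed panel, the ones that turned sign were small, and the cause was not tested. Slc38a2, outside both, turned further with averaged probe sets. It went from 0.16 to -0.58 (adjusted p = 4.33e-05) in knockout activation and from 0.30 to -0.38 (adjusted p = 0.00197) in wild-type activation. With quantile normalization, Slc3a2 activation in knockout cells was -0.03, and the naive differences were -0.01 for Shmt2 and 0.01 for Atf4. With averaged probe sets, the naive differences were -0.11 for Shmt2 and 0.01 for Atf4, the activated differences -0.03 for Phgdh and -0.06 for Atf4, and the Atf4 response difference -0.07. Without marked probe sets, naive Atf4 was 0.03 and naive Ddit3 0.04, activated Atf4 -0.13 and the Atf4 response difference -0.16. Leaving out 1 array gave naive differences of -0.04 to 0.39 for Phgdh, -0.06 to 0.10 for Shmt2 and -0.06 to 0.02 for Atf4. It gave activated differences of -0.10 to 0.01 for Asns, -0.03 to 0.14 for Phgdh, -0.14 to 0.03 for Mthfd2 and -0.06 to 0.11 for Atf4, and response differences of -0.00 to 0.24 for Slc7a5, -0.31 to 0.11 for Phgdh and -0.05 to 0.13 for Atf4. Dim members (Slc7a11, Pycr1) lay at or below the median probe set, where signal limits what can be seen.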
